A study of Drosophila melanogaster with 4 samples.

Results

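The Ab peaks at *chinmo* are described here, in mosaic eye/antennal discs that overexpressed *ab* in *scrib1* mutant clones (*scrib1*+*ab*) and in mosaic discs that overexpressed *ab* alone (*ab*). The peaks were chosen by position. Every called peak with at least 1 bp between 1651248 and 1698289 on arm 2L of dm3 was taken, which is the 47042 bp stretch shown for *chinmo* in the browser view of the study. This gave 32 of the 19773 peaks in both deposited lists, 22 of 10892 in *scrib1*+*ab* and 10 of 8881 in *ab*. The stretch was set around a gene picked for its Ab peaks, and the unequal numbers of peaks were known when it was chosen, so these numbers are a description and were not tested.

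Both genotypes were made with the MARCM system, in which *ey-FLP1* induces clones on the *FRT82B* arm and a *Tub-GAL4* driver, released from GAL80 in the clones, expresses *ab* from a *UAS* transgene and a membrane GFP in the marked cells. In *scrib1*+*ab* discs the marked clones were also homozygous for *scrib1*, a mutation of *scribbled*, which maintains epithelial polarity and acts as a tumour suppressor, whereas in *ab* discs they were not. The labels name *UAS-ab55* for the *ab* discs and the strain *FRT82B,scrib1* for the *scrib1*+*ab* discs, for which they do not name the *ab* line. The discs are the larval epithelium that gives rise to the adult eye and antenna, and they were taken at 5 days after egg laying. Unmarked cells remain in mosaic discs, and the anti-Ab antibody does not tell the transgene's product from endogenous Ab, so both can contribute to either list. From each genotype came a single pull-down library, pooled from 3 to 6 immunoprecipitations of about 100 discs each, and a single input library. No value therefore has a replicate error, a difference is one between these libraries, and the intervals below are exact (Clopper-Pearson) 95% intervals that cover counting error only. The genome sequence and gene annotation of dm3 were not used here, so no sequence of a peak is given.

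*chinmo* (*chronologically inappropriate morphogenesis*) encodes a BTB-zinc finger transcription factor, the protein class to which Ab itself belongs. Proteins of this class bind DNA through their zinc fingers and associate with each other and with cofactors through the BTB domain. Chinmo is best known as a timing factor: it marks early-born neurons and young neural progenitors, its level falls as development proceeds, and it acts in opposition to the later factors Broad and E93. It also acts downstream of JAK/STAT signalling and helps to keep stem and progenitor cells in an undifferentiated state. In the browser view of the study, read by eye and without coordinates, the gene runs to the right. Long transcripts are drawn to start at the left edge of the stretch and shorter ones inside it. Coding exons near the right end are shared by the transcripts as drawn there. An array probe set that the study lists for the gene has a dm3 alignment that ends to the left of those exons. It is therefore not established that every form of the gene has them.

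The 32 peaks lay in 5 groups, with a limit of 2000 bp between neighbours that was set after the positions had been seen. The first group, at the left edge, where the long transcripts are drawn to start, held 2 *scrib1*+*ab* peaks and 3 *ab* peaks. Another array probe set that the study lists has a dm3 alignment that begins within this group. The exact start of the long transcripts is therefore not established here. The second group, farther inside the long intron of these transcripts, held 2 *scrib1*+*ab* and 2 *ab* peaks. The third surrounded the start of the shorter transcripts and held 9 *scrib1*+*ab* and 3 *ab* peaks. A single *scrib1*+*ab* peak and 0 *ab* peaks made up the fourth, in the introns. The fifth, around the first exon common to the transcripts as drawn, held 8 *scrib1*+*ab* and 2 *ab* peaks. The third and the fifth group thus had 6 more *scrib1*+*ab* than *ab* peaks each and the fourth 1 more, and the group at the left edge had 1 more *ab* peak. The fourth and the fifth group were separated by 15830 bp, from 1672206 to 1688035, which was the longest stretch without a peak of either list.

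**Figure D1:**
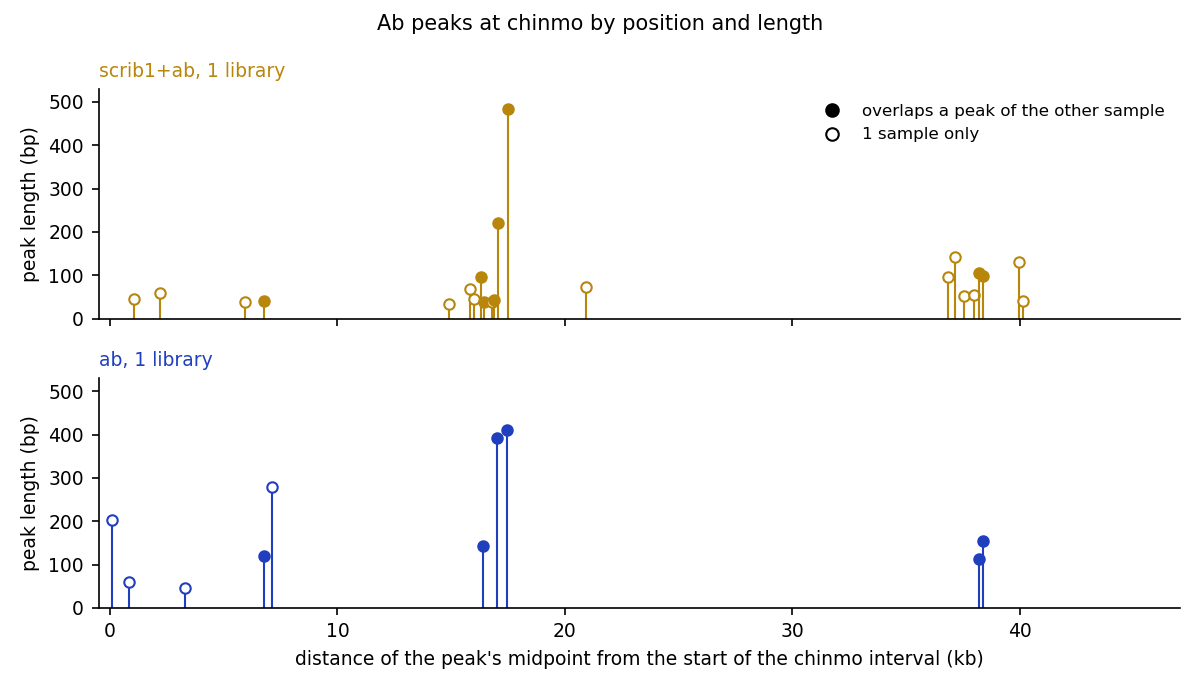
Ab peaks at *chinmo* in *scrib1*+*ab* (top) and *ab* (bottom), 1 library each. Each stem is a peak, placed by the distance of its midpoint from the start of the stretch (kb) and as high as the peak is long (bp); filled points overlap a peak of the other sample. The longest peaks of both samples stand at 17.49 kb (*scrib1*+*ab*) and 17.47 kb (*ab*), and the *ab* peak of 279 bp at 7.12 kb is open.

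Around the start of the shorter transcripts, both samples had their longest peaks of the gene. The *scrib1*+*ab* peak at 1668500 to 1668982 was 483 bp long and contained all 411 bp of the *ab* peak at 1668514 to 1668924. Its length was at percentile 99.3 of the *scrib1*+*ab* list, and that of the *ab* peak at percentile 91.4 of the *ab* list. The pair was also the first of the gene in the order of the lists. Within each arm the lists are ordered by some measure that the sources used here do not give, with long peaks near the top. The *scrib1*+*ab* peak was at place 22 of 1934 on arm 2L and the *ab* peak at place 41 of 1548. Of *scrib1*+*ab* peaks in the first 10% of their arm's list, 98.8% overlapped an *ab* peak, as this one did.

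Next to this pair, an *ab* peak of 391 bp at 1668078 to 1668468 met 2 *scrib1*+*ab* peaks, one of 42 bp at 1668107 to 1668148 and one of 220 bp at 1668195 to 1668414. Both of these lay entirely within it, and together they covered 262 of its bases. The same relation was seen farther to the left, where the *ab* peak at 1667569 to 1667711 (143 bp) met *scrib1*+*ab* peaks at 1667530 to 1667626 (97 bp) and 1667686 to 1667724 (39 bp). So in this group 3 *ab* peaks met 5 *scrib1*+*ab* peaks. The other 4 *scrib1*+*ab* peaks of the group met none. These were at 1666145 to 1666178 (34 bp), 1667049 to 1667117 (69 bp), 1667234 to 1667277 (44 bp) and 1668011 to 1668049 (39 bp), at 1390, 451, 291 and 28 bp from the nearest *ab* peak. The last of them was the closest to an *ab* peak among all single-sample peaks of the gene. In sum, the peaks of the group covered 1067 bp in *scrib1*+*ab* and 945 bp in *ab*.

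Around the first common exon, the *ab* sample had a pair of peaks, each met by 1 *scrib1*+*ab* peak. At the left one, the *scrib1*+*ab* peak spanned 1689395 to 1689500 (106 bp) and the *ab* peak 1689401 to 1689512 (112 bp). At the right one, the *scrib1*+*ab* peak spanned 1689578 to 1689675 (98 bp) and lay within the *ab* peak of 1689573 to 1689727 (155 bp). The *scrib1*+*ab* sample had 6 further peaks in this group, 4 on the left and 2 on the right of the shared pair. On the left these were at 1688036 to 1688130 (95 bp), 1688320 to 1688460 (141 bp), 1688794 to 1688846 (53 bp) and 1689200 to 1689253 (54 bp), at 1270, 940, 554 and 147 bp from the nearest *ab* peak. On the right they were at 1691178 to 1691308 (131 bp) and 1691369 to 1691408 (40 bp), at 1450 and 1641 bp from it. The browser view places these right-hand peaks in the intron after the exon and the others in the intron before it. The peaks of 141 and 131 bp were the longest *scrib1*+*ab* peaks of the gene without an *ab* counterpart, and stood at 20.6% and 26.7% of the arm's list. In this group the peaks covered 718 bp in *scrib1*+*ab* and 267 bp in *ab*.

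**Figure D2:**
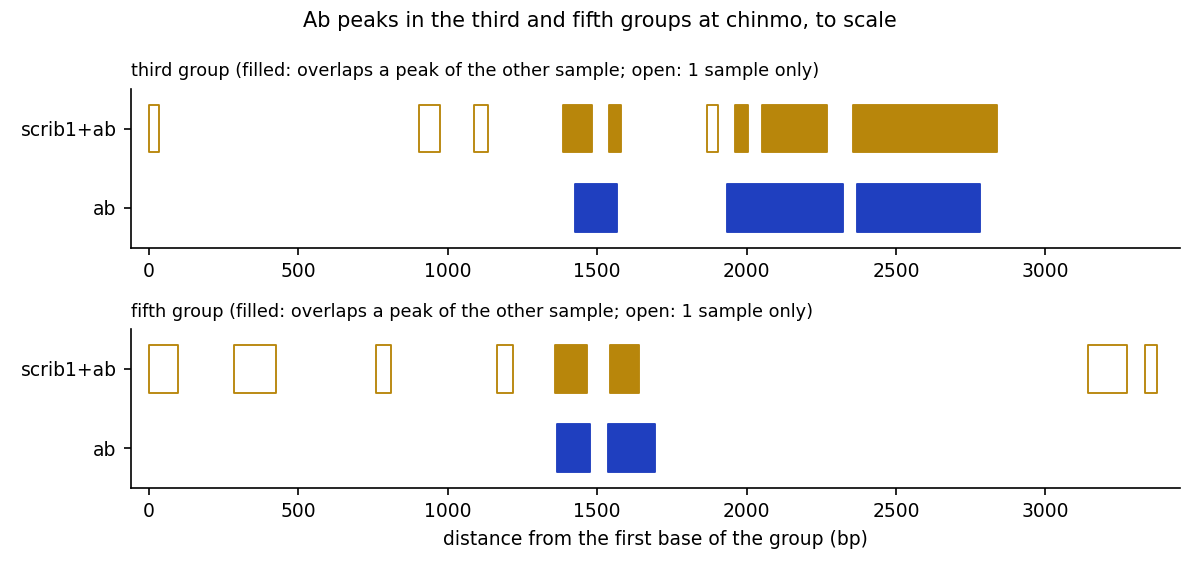
The peaks of the third group (top, around the start of the shorter transcripts) and the fifth group (bottom, around the first common exon), drawn to scale by distance from the first base of the group (bp), with *scrib1*+*ab* above *ab*. Filled bars overlap a peak of the other sample. Each *ab* bar has at least 1 *scrib1*+*ab* bar over it, and the open *scrib1*+*ab* bars, 4 in the upper and 6 in the lower drawing, have no *ab* bar.

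In the group at the left edge the samples shared no peak. The *scrib1*+*ab* peaks were at 1652285 to 1652329 (45 bp) and 1653406 to 1653464 (59 bp), the second of which the browser view places in an exon. The *ab* peaks were at 1651222 to 1651423 (202 bp), 1652044 to 1652103 (60 bp) and 1654503 to 1654547 (45 bp). The *ab* peak of 202 bp crosses the left edge of the stretch, where the long transcripts are drawn to start, and the nearest *scrib1*+*ab* peak was 861 bp away. It stood at 58.7% of the *ab* list of the arm, and its length was at percentile 64.8 of all *ab* peaks. The other *ab* peaks of the group were 181 and 1038 bp from a *scrib1*+*ab* peak.

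Inside the long intron, a *scrib1*+*ab* peak of 40 bp at 1657975 to 1658014 lay within an *ab* peak of 119 bp at 1657948 to 1658066. The other *scrib1*+*ab* peak of the group, at 1657166 to 1657204 (39 bp), was 743 bp from an *ab* peak. The second *ab* peak there, at 1658224 to 1658502 (279 bp), was the longest *ab* peak of *chinmo* without a *scrib1*+*ab* counterpart, with 209 bp to the nearest one. This *ab* peak stood at place 136 of 1548 on its arm, in the first 10% of the list. Among *ab* peaks in the first 10% of their arm's list, 98.1% overlapped a *scrib1*+*ab* peak, and it was one of 17 of 885 that did not (3 of 154 on arm 2L). The 17 were 251 to 739 bp long, with a median of 481 bp. The one at *chinmo* was thus a rare case for its place in the list and short among such cases. Finally, the fourth group was a *scrib1*+*ab* peak of 73 bp at 1672133 to 1672205, which was 3208 bp from the nearest *ab* peak, the largest such distance at the gene.

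The *scrib1*+*ab* list had 2.2 peaks at *chinmo* for each *ab* peak, and over the whole lists it had 1.23. The difference of 12 peaks can be divided by counting. Peaks that overlapped the other sample numbered 8 in *scrib1*+*ab* and 6 in *ab*, because 2 *ab* peaks were each met by 2 *scrib1*+*ab* peaks, and this accounts for 2 of the 12. Peaks in 1 sample only numbered 14 in *scrib1*+*ab* and 4 in *ab*, which accounts for the other 10. Over the whole lists, 1088 of the 2011 additional *scrib1*+*ab* peaks were of the first kind and 923 of the second. Counted from 1 bp of overlap, peaks of 1 sample thus made up 10 of the 12 at *chinmo*, and the splitting of *ab* peaks 2. Such a count takes a near miss for an additional peak. Of the 14 *scrib1*+*ab* peaks without an overlap, 5 were within 500 bp of an *ab* peak. With a gap of at most 500 bp counted as shared, 59.1% of *scrib1*+*ab* and 80% of *ab* peaks were shared, so the division depends on this definition. With neighbouring peaks of a sample joined within 500 bp, 9 *scrib1*+*ab* and 6 *ab* regions remained, which were not divided in this way.

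Under a fixed limit of 80 bp, the net difference of 12 peaks lay among the short ones. Of the *scrib1*+*ab* peaks at *chinmo*, 14 were under 80 bp, and of the *ab* peaks 2. Peaks of 80 bp or more numbered 8 in each sample, and those of 100 bp or more 5 in *scrib1*+*ab* and 8 in *ab*. Over the whole lists, 57.5% of *scrib1*+*ab* peaks and 20.3% of *ab* peaks were under 80 bp. The shares at *chinmo*, 63.6% (95% interval 40.7 to 82.8%) and 20% (2.52 to 55.6%), were near that background, and the limit of 80 bp was set with the lengths known. Peaks under 40 bp, the read length set for the peak caller, numbered 4 in *scrib1*+*ab* (18.2%, interval 5.19 to 40.3%, against 23.3% of the list) and 0 in *ab* (2.65% of the list). All of these 4 except that of 34 bp were 39 bp long, just under the limit. Leaving out the peaks under 40 bp gave 18 *scrib1*+*ab* and 10 *ab* peaks at *chinmo*, a ratio of 1.8. Over the whole lists the ratio was then 0.966. With peaks of 80 bp or more the ratio was 1 at *chinmo* and 0.654 over the lists. With peaks of 100 bp or more the ratios came to 0.625 and 0.548. A fixed limit removes a larger part of the *scrib1*+*ab* list, whose peaks are shorter. With a limit relative to each list, the longer 50% of its peaks, *chinmo* kept 10 *scrib1*+*ab* and 5 *ab* peaks, a ratio of 2.

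**Figure D3:**
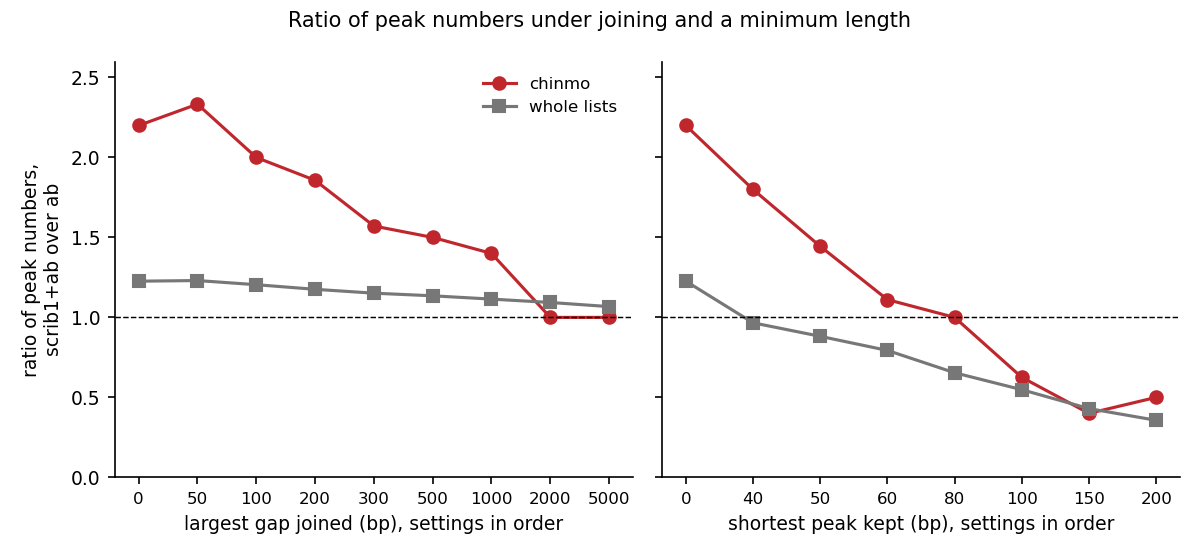
The ratio of peak numbers, *scrib1*+*ab* over *ab*, at *chinmo* (circles) and over the whole lists (squares), with neighbouring peaks of a sample joined up to a given gap (left, bp) and with peaks under a given length left out (right, bp); settings are evenly spaced in order, and the dashed line is a ratio of 1. The ratio at *chinmo* comes down to 1.5 when peaks within 500 bp are joined and to 1 within 2000 bp, and it reaches 1 with peaks of at least 80 bp.

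The number of *chinmo* peaks also depended on how far apart neighbouring peaks must be. With peaks of a sample joined across gaps of at most 100 bp there were 16 *scrib1*+*ab* and 8 *ab* regions, and across at most 500 bp, about the length of the sonicated fragments, 9 and 6. When gaps of up to 2000 bp were joined, each sample had 5 regions. Over the whole lists the ratio moved less, to 1.13 at 500 bp and 1.09 at 2000 bp. In *scrib1*+*ab*, 6 of the 21 gaps between neighbouring *chinmo* peaks were at most 100 bp, and in *ab* 2 of 9 were. The narrowest of them were 46 bp in *scrib1*+*ab* and 45 bp in *ab*, just above the MAXGAP of 40 set for the peak caller. No gap in either whole list was under 41 bp. That setting itself could not be varied here, since only the called peaks were used.

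The share of *scrib1*+*ab* peaks that overlapped an *ab* peak was lower at *chinmo* than in the list as a whole, which was not tested. Of the 22 *scrib1*+*ab* peaks, 8 overlapped an *ab* peak (36.4%, interval 17.2 to 59.3%), and 58.2% of the whole *scrib1*+*ab* list did. That share was 18.2% where at least 50% of both peaks had to overlap and 59.1% where a gap of up to 500 bp was allowed. Of the 10 *ab* peaks, 6 overlapped a *scrib1*+*ab* peak (60%, interval 26.2 to 87.8%), near the 59.1% of the whole *ab* list. Both intervals include the background, and 22 and 10 peaks do not allow a finer comparison. The unequal numbers were known when the gene was chosen. A surplus of *scrib1*+*ab* peaks can by itself lower the share of them that meets an *ab* peak. The low share is therefore not separate from that surplus. The intervals treat peaks as independent, which neighbouring *scrib1*+*ab* peaks over the same *ab* peak are not. Counted by bases, 995 bp at the gene lay in peaks of both samples, which was 48.8% of the *scrib1*+*ab* peak bases and 51.9% of the *ab* peak bases, compared with 66.7% and 41.3% over the lists. Of the 14 *scrib1*+*ab* peaks without an overlap, 1 was within 100 bp of an *ab* peak, 5 were within 500 bp and 8 within 1000 bp, while over the whole list 14.7%, 40.7% and 51.9% of such peaks were.

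The bases under peaks differed less between the samples than the number of peaks. At *chinmo*, 2041 bp lay under peaks in *scrib1*+*ab* and 1917 bp in *ab*, a ratio of 1.06 that fell below 1, to 0.986, without the peaks under 40 bp. Over the whole lists the ratio was 0.619. The median length was 56.5 bp (quartiles 40.5 and 97.8 bp) in *scrib1*+*ab* and 149 bp (114 and 260 bp) in *ab*, beside medians of 69 and 151 bp over the lists. The *chinmo* peaks were thus slightly shorter than usual in *scrib1*+*ab* and of usual length in *ab*. Where peaks of both samples matched, the *ab* peak was usually the longer, as elsewhere. In 5 of 6 pairs in which each peak had its longest overlap with the other, the *ab* peak was longer, and over the lists this held in 82.7% of 5179 pairs. The exception was the longest pair around the start of the shorter transcripts, with 483 bp in *scrib1*+*ab* and 411 bp in *ab*, a ratio of 1.18.

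By place in the lists, the difference in peak numbers at *chinmo* lay after the first 25% of the arm's list. Most single-sample peaks of the whole lists also stood late, in the later 50%. In the first 10% of the arm's list, *chinmo* had 2 *scrib1*+*ab* and 2 *ab* peaks. In the first 25% it had 3 and 3, and in the first 50% 9 and 5. The remaining 13 *scrib1*+*ab* peaks and 5 *ab* peaks stood in the later part of the lists. Single-sample peaks of *chinmo* had a median place of 57.2% in *scrib1*+*ab* and 66.1% in *ab*, and shared ones 43% and 39.4%. Over the whole lists these medians were 68.6% and 70.3% for single-sample peaks, and 33.3% and 33.7% for shared ones. The single-sample peaks of *chinmo* thus stood somewhat earlier by median than is usual. In the later 50% stood 10 of the 14 single-sample *scrib1*+*ab* peaks of *chinmo*, and 3366 of 4552 over the whole list. The 2 leading *scrib1*+*ab* peaks were the neighbours of 483 and 220 bp around the start of the shorter transcripts. The 2 leading *ab* peaks were that of 411 bp there and that of 279 bp in the long intron.

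**Figure D4:**
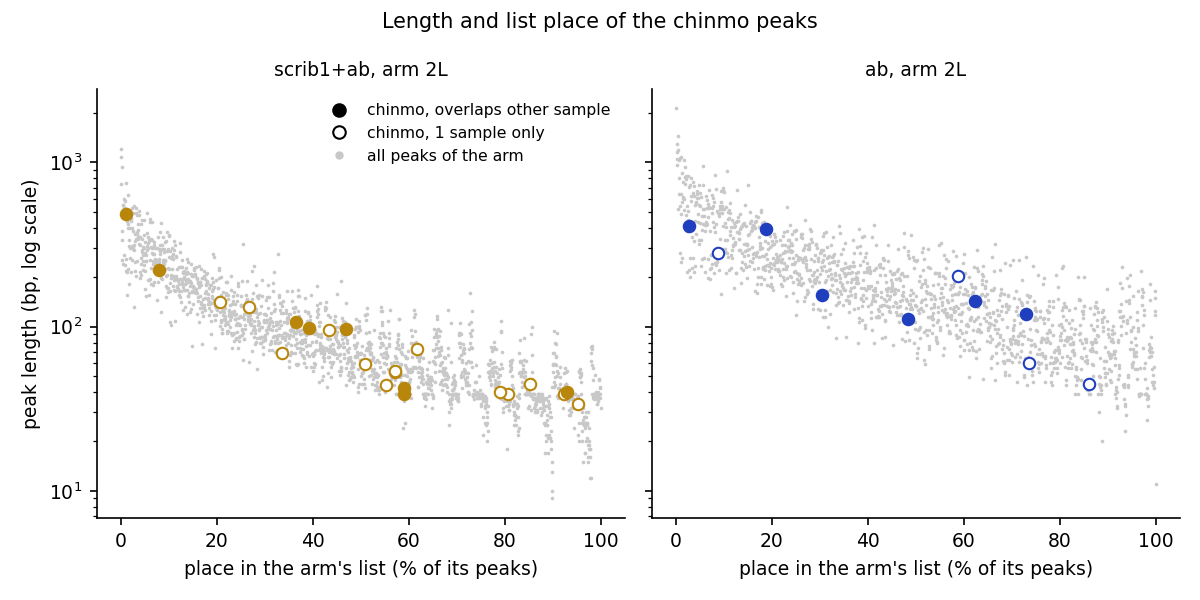
Length (bp, log scale) against place in the list of arm 2L (% of its peaks) for *scrib1*+*ab* (left) and *ab* (right). Grey points are all peaks of the arm, and circles are those at *chinmo*, filled where they overlap a peak of the other sample. Of the 22 *scrib1*+*ab* circles 14 are open, 10 of them in the later 50% of the list, and the open *ab* circle at 8.79% is the intron peak of 279 bp.

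Set beside its neighbourhood and the rest of the genome, *chinmo* was rich in Ab peaks in both samples. The stretches of the same length on either side of it held 8 *scrib1*+*ab* and 5 *ab* peaks before the gene, and 4 *scrib1*+*ab* and 0 *ab* peaks after it, without the peak that crosses the edge. When the 5 arms were divided into 2523 windows of the same length, with a peak counted in each window that it touches, the median window held 3 *scrib1*+*ab* and 2 *ab* peaks. At least as many peaks as *chinmo* were held by 1.7% of windows in *scrib1*+*ab* and by 9.39% in *ab*. Among 735 windows with at least 5 *ab* peaks, the ratio of *scrib1*+*ab* to *ab* peaks had a median of 1.11 and ran between 0.2 and 3.17, and it was 2.2 or more in 3.95%, *chinmo* included. Of 59 windows with exactly 10 *ab* peaks, the *scrib1*+*ab* number ran from 4 to 24 with a median of 12, and 5.08% had at least 22. The ratio at *chinmo* was therefore high but not the only one of its size. Of the 735 windows, 29, *chinmo* included, had a ratio at least as high. Since the gene was chosen with its numbers known, these shares describe where it stands and are no test.

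**Figure D5:**
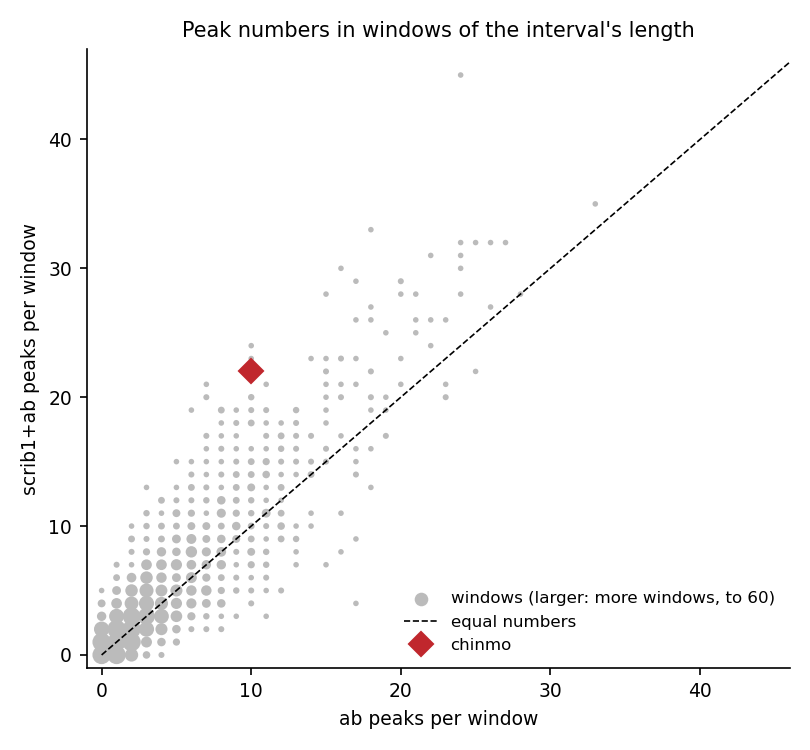
Number of *scrib1*+*ab* peaks against number of *ab* peaks in 2523 windows of 47042 bp along the 5 chromosome arms. Larger grey points stand for more windows, the dashed line for equal numbers, and the diamond for *chinmo*, which lies above the line at 22 *scrib1*+*ab* and 10 *ab* peaks, near the upper edge of the windows with 10 *ab* peaks.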

How the data were processed

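Ab-bound DNA was sequenced by the authors from mosaic discs of 2 genotypes, with 1 pull-down and 1 input library each. By the study's methods, about 8500000 (*scrib1*+*ab*) and 8600000 (*ab*) reads were aligned to dm3 (BDGP Release 5) with Bowtie, and PeakSeq compared each library with its normalised input (READLENGTH 40, MAXGAP 40, MINFDR 0.01, PVALTHRESH 0.0001). The deposited lists hold an arm, a start and an end per peak, and the deposited score is 1 throughout. The study also deposited signal profiles, which were not used here. Neither heights nor reads were therefore analysed, and the calling was not varied. Starts were converted to count from 1.

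Peaks of the 2 lists were called shared from 1 bp of overlap, and a length percentile gives ties their mean rank. Overlaps, joins and windows were computed with Python 3.11.15, NumPy 2.4.6, SciPy 1.17.1 and Matplotlib 3.10.9, after the functions were tested on simulated data. The peaks and all limits were chosen with earlier results of these data known. Every peak of the stretch is named. Without a dm3 annotation, introns and start sites come from the study's browser view by eye, so no distance from a start site is given. The dm3 alignments that the study lists for array probe sets of the gene were not used to place start sites. No other gene was placed. Input and expression data were not analysed here.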

Additional observations from a re-analysis of the deposited data

How the results depend on the processing

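No paired analysis was possible because each genotype has 1 library and no test was made. Of 50 recomputed values at *chinmo*, 36 kept their direction and stayed within their limits, which were a factor of 1.5 for counts and bases and the 95% counting interval for shares and the ratio of numbers. The ratio of peak numbers was above 1 in the 6 alternatives planned for it (1.5 to 2.44). Of 13 others added after seeing the data, 7 were above 1, 3 were at 1 and 3 were below it. It was 1 with peaks joined within 2000 or 5000 bp and with peaks of at least 80 bp. With peaks of at least 100, 150 and 200 bp it was reversed, at 0.625, 0.4 and 0.5. The ratio of covered bases was 0.986 with peaks of at least 40 bp, also on the other side of 1. The counting intervals are wide with 22 and 10 peaks. Within them, the shared percentage of *scrib1*+*ab* peaks was 18.2% with a reciprocal overlap of at least 50% and 59.1% with a gap of at most 500 bp, and that of *ab* peaks 40% and 80%. Joining peaks within 500 bp gave 9 *scrib1*+*ab* and 6 *ab* regions and a ratio of covered bases of 1.61, since joining fills the gaps. The longer 50% of each list held 10 *scrib1*+*ab* and 5 *ab* peaks, and the first 50% of each arm's list, a setting chosen after seeing the data, 9 and 5. Both keep fewer peaks by construction. The depth of reads at a peak is not in the lists.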
